A study of Mus musculus with 4 samples.

Results

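The 10 genes described here encode the core machinery of N6-methyladenosine (m6A) in mRNA, and they were taken by symbol from a list of 3 writers (*Mettl3*, *Mettl14* and *Wtap*), 5 readers (*Ythdf1*, *Ythdf2*, *Ythdf3*, *Ythdc1* and *Ythdc2*) and 2 erasers (*Alkbh5* and *Fto*). All 10 were found, each as a single entry, among the 21957 genes of the expression table. The study followed mouse oocytes through meiotic maturation with or without Tubastatin A (TubA), a small molecule made to inhibit the cytoplasmic deacetylase HDAC6. Denuded germinal vesicle oocytes came from hybrid B6D2F1 (C57BL/6 x DBA) females aged 6 to 8 weeks and primed with gonadotropin. They were taken at 0 h (GV), or after 12 h in M16 medium without TubA (MII, collected if a polar body had been extruded), with 10 μM TubA (TubA-10) or with 20 μM TubA (TubA-20). The paper describes oocytes given the higher dose as arrested before MII. It names selection by polar body for the MII oocytes and for no other pool. TubA-20 and MII thus differed in meiotic stage as well as in TubA. The part of each in the values below was not tested. RNA of 100 pooled oocytes per condition was selected with oligo(dT), so the 4 conditions had 1 library each, no spread between replicates is known, and no difference below has a test.

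m6A is a methyl mark on adenosines inside mRNA. METTL3 transfers the methyl group as a heterodimer with METTL14, which helps to hold the RNA, and WTAP anchors this pair in the larger writer complex of the nucleus. Proteins with a YTH domain bind the mark: the YTHDF proteins in the cytoplasm, where YTHDF2 brings marked mRNAs to decay, YTHDC1 in the nucleus, where it acts in splicing and export, and YTHDC2, a helicase needed for meiosis in germ cells. ALKBH5 and FTO are the demethylases that remove the mark. A growing oocyte stores mRNA, stops transcription before maturation, and then translates or degrades the store, so YTHDF2 and the m6A enzymes have been studied in oocytes for their part in mRNA turnover.

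Some facts of the libraries bear on every value. The labels of the MII sample call it an embryo in the title, and their treatment field enters TubA-10 at 20 μM and TubA-20 at 11 μM, whereas titles and methods state 10 and 20 μM, the doses used here. The labels and the methods name different extraction reagents. From the steps of very low values, MII and TubA-10 were estimated at 1.64 and 1.68 times the depth of GV and TubA-20 at 0.901 times, too near to GV to say which of GV and TubA-20 was deeper. The read totals that the paper gives were larger for TubA-20 than for GV. All 12 oocyte markers (*Zp1* to *Zp3*, *Gdf9*, *Bmp15* and others) were above 1 FPKM in each library, with summed levels from 17863 in GV to 24233 in TubA-20. Single markers differed both ways, since *Zp3* had 2454 FPKM in GV against 973 in TubA-20 and *Oosp1* had 2700 against 6213. Of 12 cumulus and granulosa markers, 4 were above 1 FPKM in TubA-20 and 2 in each other library, with summed levels of 17.0 FPKM in GV, 14.3 in MII, 16.8 in TubA-20 and 11.0 in TubA-10, and *Foxl2* was at 0 in each. *Inha*, a granulosa gene, was highest in GV at 7.50 FPKM, with no more than 0.314 in the cultured libraries. *Amh*, *Fshr* and *Inhba* also peaked there, each below 1 FPKM. *Cyp19a1* and *Kitl* were instead lowest in GV. *Cyp19a1* rose from 6.14 FPKM there to 10.3 under the higher TubA dose, and *Kitl* from 0.952 to 2.75 in MII. *Ptx3* and *Tnfaip6* exceeded 1 FPKM under the higher dose only. Of 8 blood and immune markers only *Cd68* exceeded 1 FPKM, and its highest value was 2.26. The part of other cells or of depth in the values below was not tested. Levels are in FPKM (fragments per kilobase of transcript, scaled to the mapped fragments of a library), which are divided by transcript length, so genes may be compared within a library.

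Among the writers, *Wtap* differed most between libraries, *Mettl14* was lowest in GV, and *Mettl3* was lowest in MII. *Mettl3* (chr14:52294841-52305128, minus strand, GRCm38) encodes the catalytic subunit and was lowest in MII at 35.1 FPKM, with 44.6 in TubA-10, 47.5 in GV and 49.2 in TubA-20. MII was thus the low library, and the other 3 lay close together. *Mettl14* (chr3:123368297-123386108, minus strand) had 16.8 FPKM before culture in GV, and then 25.7 in TubA-20, 27.3 in TubA-10 and 32.1 in MII. Here GV was the low library, and each of the cultured libraries was higher. *Wtap* (chr17:12966796-12994169, minus strand) went from 41.1 FPKM in GV and 47.4 in TubA-10 to 72.8 in MII and 105 in TubA-20. GV and TubA-10 were the low libraries of *Wtap* and TubA-20 the high one, at 2.56 times the lowest, the widest range of the 10 genes.

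Differences between libraries are given as the log2 ratio of FPKM + 1, and a gene is counted as higher or lower when it passes 2-fold on that scale, over the genes that reached 1 FPKM in either library. The pseudocount of 1 understates differences of genes near 1 FPKM. For *Wtap* the log2 difference from GV was 0.20 in TubA-10, 0.81 in MII and 1.33 in TubA-20. The last passed 2-fold, as did 1.13 for TubA-20 against TubA-10, which was 0.94 with libraries scaled to equal *Gapdh*. Only 4.76% of all genes tested were at least as high in TubA-20 against GV, and 0.617% in TubA-20 against TubA-10. Set against MII, *Wtap* was at −0.61 in TubA-10, where 98.3% of genes were at least as high, and at 0.52 in TubA-20. *Mettl14* differed from GV by 0.58 in TubA-20, 0.67 in TubA-10 and 0.90 in MII, none of them past 2-fold. *Mettl3* differed from GV by −0.42 in MII, and its differences of −0.09 in TubA-10 and 0.05 in TubA-20 turned sign, the first when libraries were scaled to equal *Gapdh* and the second when they were scaled to a median change of 0 or to equal upper quartiles.

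These writers therefore stood in different proportions in each library, and such proportions do not depend on how libraries are scaled. *Mettl3* was at 1.09 times the level of *Mettl14* in MII, 1.64 times in TubA-10, 1.91 times in TubA-20 and 2.83 times in GV, so the partners of the heterodimer were nearest to equal levels in MII. *Wtap* was at 0.866 times the level of *Mettl3* in GV and 1.06 times in TubA-10, but 2.07 times in MII and 2.14 times in TubA-20. Against *Mettl14*, *Wtap* was at 1.74 times its level in TubA-10, 2.27 times in MII and 2.45 times in GV, and at 4.09 times in TubA-20. Of the summed FPKM of the 3 writers, *Wtap* made up 39.0% in GV, 39.7% in TubA-10, 52.0% in MII and 58.4% in TubA-20. The share of *Mettl3* was 45.1%, 37.4%, 25.1% and 27.3% in that order of libraries, and that of *Mettl14* was 15.9%, 22.9%, 22.9% and 14.3%. *Mettl3* held the largest share in GV only.

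**Figure D1:**
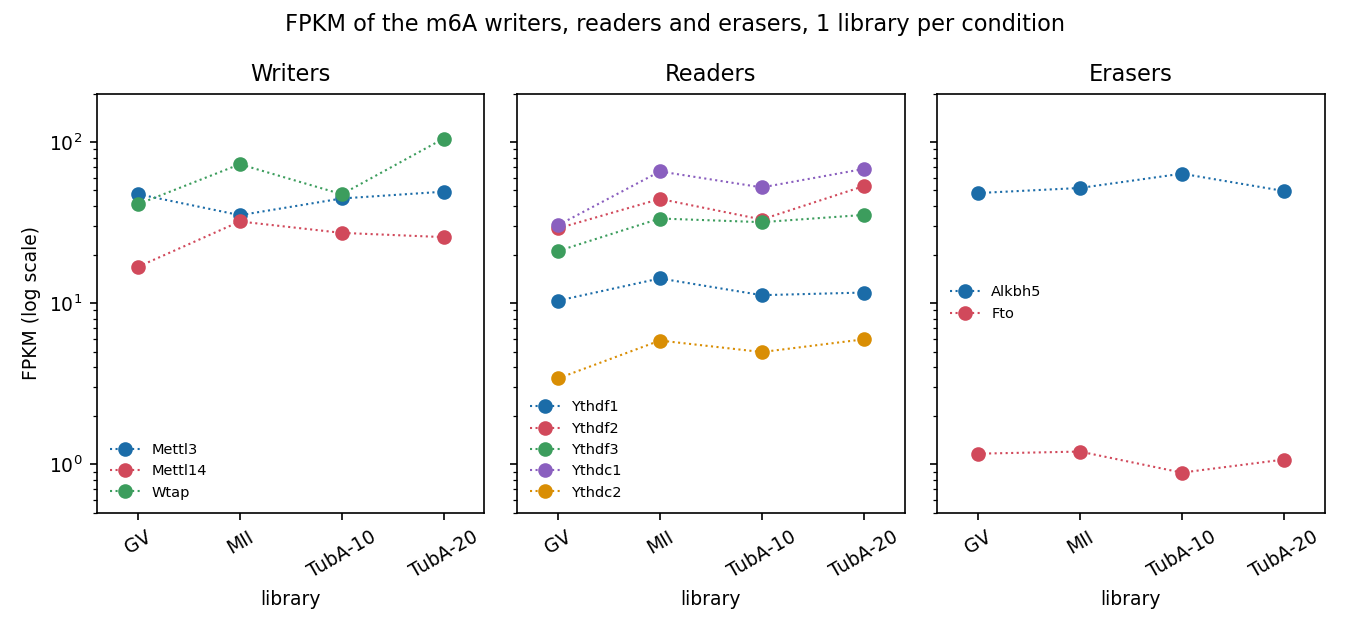
FPKM (log scale) of the writers, readers and erasers in the 4 libraries, with 1 point for each gene and library and dotted lines only to join the points of a gene. *Wtap* runs from 41.1 FPKM in GV to 105 in TubA-20, while *Alkbh5* and *Fto* span 48.2 to 63.6 FPKM and 0.886 to 1.20 FPKM.

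Since the RNA was selected by its poly(A) tail, the ends of the mRNAs bear on what FPKM can show. In maturing oocytes some stored mRNAs gain a longer tail through cytoplasmic polyadenylation elements near the polyadenylation signal, and others lose theirs. A longer tail and more RNA therefore cannot be told apart here. FPKM are also scaled to the mapped fragments of each library, so they give shares and not amounts per oocyte. A gene above GV may thus have been lost more slowly than other mRNAs, which was not tested. The last 100 bases of the principal transcript (GENCODE M21, GRCm38) were searched on the sense strand for the element TTTTAT or TTTTAAT and for the signal AATAAA or ATTAAA. The signal was found in 10 of 10 genes, against 81.21% of 9619 protein-coding genes that reached 1 FPKM in GV and have a 3′ UTR of at least 100 bases. An element was found in 2 of 10, against 20.06%, and both were writers: TTTTAT began 14 and 100 bases from the end of the *Wtap* transcript and 45 bases from the end of that of *Mettl14*, while TTTTAAT, present in 5.915% of genes, was in none of the 10. For the writers and for *Ythdc1*, which include the genes past 2-fold in a comparison, 30 bases around the signal are given 5′ to 3′, with elements and signals in capitals. A match is a description of letters and not of use.
Wtap: tactgaccaaacctaAATAAAcatTTTTAT
Mettl14: tTTTTATtttgctataacttttctAATAAA
Mettl3: ccctaccctgtatataAATAAATAAAagtt
Ythdc1: attgctactgttttgtatgaAATAAAttga
In *Wtap* one element follows the signal and another, not shown, lies upstream of it, in *Mettl14* the element precedes the signal, *Mettl3* has overlapping copies of the signal, and *Ythdc1* has the signal alone. The writer with the element nearest to the end, *Wtap*, was the one with the widest range of levels. *Ythdc1*, with no element in this window, came next. Whether the elements bear on levels was not tested.

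The cytoplasmic readers had their lowest level in GV in all 3 cases, and *Ythdf2* was the one that differed most. *Ythdf1* (chr2:180904377-180920949, minus strand), often described as a promoter of translation, had 10.4 FPKM in GV, 11.2 in TubA-10, 11.6 in TubA-20 and 14.2 in MII. *Ythdf2* (chr4:132184912-132212303, minus strand), the reader linked to mRNA decay and needed in the mouse for a competent oocyte, had 29.1 FPKM in GV, 33.0 in TubA-10, 44.3 in MII and 53.2 in TubA-20. The libraries ran GV, TubA-10, MII, TubA-20 from low to high, the order seen for *Wtap*. *Ythdf3* (chr3:16183212-16217037, plus strand), which shares targets with the other two, stood lowest in GV at 21.04 FPKM, followed by 31.8 in TubA-10, 33.5 in MII and 35.3 in TubA-20. This was again the order of *Wtap*, though the cultured libraries lay close together.

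On the log2 scale, *Ythdf2* differed from GV by 0.18 in TubA-10, 0.59 in MII and 0.85 in TubA-20, and TubA-20 was 0.67 above TubA-10 and 0.26 above MII. *Ythdf3* differed from GV by 0.57 in TubA-10, 0.65 in MII and 0.72 in TubA-20, and its small difference between TubA-20 and MII, 0.07, turned sign under each of 4 scalings. *Ythdf1* differed from GV by 0.42 in MII, and by 0.10 in TubA-10 and 0.15 in TubA-20, both of which turned sign with the median change set to 0. No cytoplasmic reader passed 2-fold in any of the 6 comparisons. The summed FPKM of the cytoplasmic readers was 60.5 in GV, 76.0 in TubA-10, 92.0 in MII and 100.1 in TubA-20. In that order of libraries *Ythdf2* made up 48.1%, 43.4%, 48.1% and 53.2% of it, *Ythdf3* 34.8%, 41.8%, 36.4% and 35.2%, and *Ythdf1* 17.1%, 14.7%, 15.5% and 11.6%. *Ythdf2* thus held the largest share in each library, and *Ythdf1* the smallest. The ratio of *Ythdf2* to *Ythdf1* was 2.81 in GV, 2.95 in TubA-10, 3.12 in MII and 4.58 in TubA-20.

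The nuclear reader *Ythdc1* (chr5:86804221-86836659, plus strand) had 30.4 FPKM in GV, 52.3 in TubA-10, 65.7 in MII and 68.0 in TubA-20. GV was far below the other libraries, and MII and TubA-20 were nearly level. It was the only reader past 2-fold, at 1.08 in MII against GV and 1.14 in TubA-20 against GV, where 4.09% and 10.7% of all genes tested were at least as high. With the median change set to 0 both fell short of 2-fold, at 0.94 and 0.91. In TubA-10 it stood 0.76 above GV. TubA-20 against MII gave 0.05, which turned sign under each of 4 scalings. *Ythdc2* (chr18:44827746-44889724, plus strand), the helicase that works with MEIOC when germ cells enter meiosis, had 3.41 FPKM in GV, 4.97 in TubA-10, 5.85 in MII and 5.96 in TubA-20. Its levels had the same order as those of *Ythdc1* at a far lower height: *Ythdc1* was 8.93 times as high in GV, 10.5 times in TubA-10, 11.2 times in MII and 11.4 times in TubA-20. *Ythdc2* differed from GV by 0.44 in TubA-10, 0.64 in MII and 0.66 in TubA-20, and *Meioc* itself was low, from 0.712 FPKM in GV to 2.36 in TubA-20.

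The erasers had the smallest ratios of highest to lowest level with the deposited values, at 1.32 and 1.35, close to *Ythdf1* (1.37) and *Mettl3* (1.40). This order changed with the scaling: *Ythdf1* had the smallest ratio with the median change set to 0, and *Mettl3* had it under the other 3 scalings. *Alkbh5* (chr11:60536381-60558512, plus strand), a demethylase needed in the mouse for spermatogenesis, had 63.6 FPKM in TubA-10, 51.8 in MII, 49.6 in TubA-20 and 48.2 in GV. TubA-10 was the high library, and the other 3 lay close together. The difference of TubA-10 from GV was 0.39 and from MII 0.29, while those of MII (0.10) and TubA-20 (0.04) from GV turned sign with the median change set to 0. *Fto* (chr8:91313525-91668439, plus strand), which also acts on a related mark beside the mRNA cap, had 0.886 FPKM in TubA-10, 1.07 in TubA-20, 1.16 in GV and 1.20 in MII. It was the lowest of the 10 genes in each library, above no more than 36.8% of the genes listed above 0, and at such levels differences between libraries may be poorly resolved. *Alkbh5* was 41.5 times as high as *Fto* in GV, and 43.3 times in MII, 71.7 times in TubA-10 and 46.5 times in TubA-20, so the eraser mRNA in these oocytes was almost wholly that of *Alkbh5*.

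Ranked within each library, the order of the 10 genes changed at the top and not at the bottom. In GV it was *Alkbh5*, *Mettl3*, *Wtap*, *Ythdc1*, *Ythdf2*, *Ythdf3*, *Mettl14*, *Ythdf1*, *Ythdc2* and *Fto* from high to low. *Wtap* and *Ythdc1* took the first and second place in MII and TubA-20, while *Alkbh5* led in TubA-10 as in GV. *Mettl3* went from place 2 in GV to place 5 in MII and TubA-20 and place 4 in TubA-10. *Ythdf3*, *Mettl14*, *Ythdf1*, *Ythdc2* and *Fto* held places 6 to 10 in each library. Without replicates it cannot be said which neighbours differ beyond their spread, and several lay close, such as *Alkbh5* and *Mettl3* in GV (48.2 and 47.5 FPKM) and *Ythdf2* and *Ythdf3* in TubA-10 (33.0 and 31.8).

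Counted over all 10 genes, few passed 2-fold, and none was lower by that much in any comparison. In MII against GV, 1 of 10 was higher (*Ythdc1*), where 6.28% of 10661 genes tested were higher and 17.2% lower. In TubA-10 against GV it was 0 of 10, where 1.53% were higher and 11.6% lower. In TubA-20 against GV, 2 of 10 were higher (*Wtap* and *Ythdc1*), where 15.5% were higher and 23.9% lower. A count of 1 or 2 in 10 is near these backgrounds. These 3 comparisons share the GV library. In TubA-10 against MII it was 0 of 10, with 1.1% of genes higher and 0.271% lower, and in TubA-20 against MII 0 of 10, with 0.7% higher and 5.21% lower. In TubA-20 against TubA-10 1 of 10 was higher (*Wtap*), with 1.4% higher and 11.7% lower.

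With smaller differences included, most of the 10 genes lay above GV. In MII 9 of 10 genes were above GV, *Mettl3* being the exception, beside 51.3% of all genes tested, and the median log2 difference was 0.61, beside 0.04 for all genes tested. In TubA-20 9 of 10 were above GV, with *Fto* below it, beside 52.2% of all genes, and the median was 0.62 beside 0.08. In TubA-10 8 of 10 were above GV, with *Mettl3* and *Fto* below it, beside 54.7%, and the median was 0.30 beside 0.08. With the median change set to 0, the genes above GV were 7 in MII, 6 in TubA-20 and 7 in TubA-10, beside 46.6%, 47% and 46.7% of all genes. The median of 9193 genes that reached 1 FPKM in each library was itself above GV. It lay above by 0.19 in TubA-20, 0.14 in TubA-10 and 0.13 in MII, amounts that the pseudocount makes smaller. Setting the median change to 0 shifted these libraries by −0.23, −0.16 and −0.14 in log2 FPKM, in that order. Against MII the medians were −0.22 in TubA-10, where 2 of 10 genes and 51% of all genes were above MII, and 0.04 in TubA-20, which turned negative under each of 4 scalings. For TubA-20 against TubA-10 the median was 0.14 and 8 of 10 were above 0, beside 52.2% of all genes, and the median became −0.0041 with equal *Gapdh*. All genes tested had medians of 0.01, 0.01 and 0.04 in these last 3 comparisons. Summed over the 10 genes, FPKM were 249 in GV, 317 in TubA-10, 357 in MII and 405 in TubA-20.

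**Figure D2:**
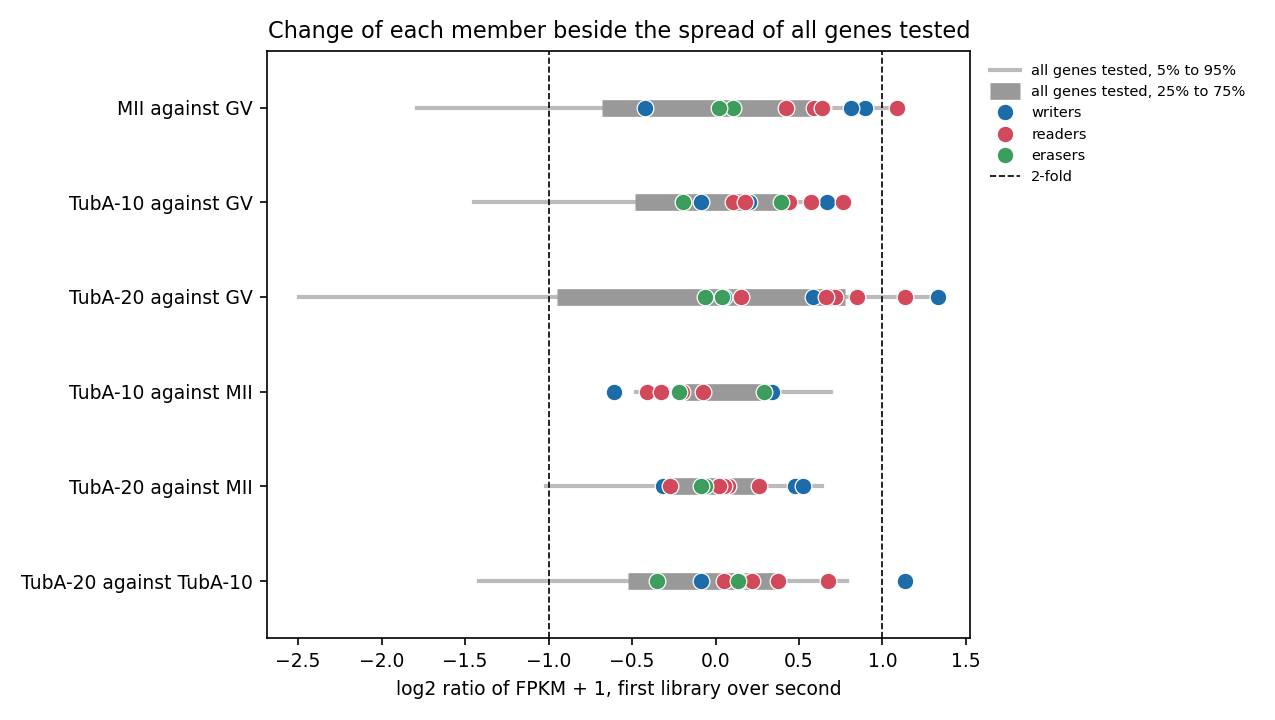
Log2 ratio of FPKM + 1 for each of the 10 genes (points, coloured by role) in the 6 comparisons, over bars for the middle range (25% to 75%) and the wider range (5% to 95%) of all genes tested, with dashed lines at 2-fold. *Ythdc1* lies at 1.08 in MII against GV, and *Wtap* lies at 1.33 in TubA-20 against GV and at 1.13 in TubA-20 against TubA-10, beyond the 95% end of all genes at 0.79 in the last.

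Placed between the control libraries, the TubA doses differed, and the part of meiotic stage in this was not tested. In TubA-10, 8 of 10 genes had a level between those of GV and MII, as did 64.9% of 10771 genes, with *Alkbh5* above and *Fto* below. In TubA-20, 3 of 10 lay between (*Mettl14*, *Ythdf1* and *Alkbh5*), as did 20.8% of 10838 genes, 6 lay above both controls, as did 40.7% of genes, and *Fto* lay below, as did 38.6%. Under each scaling only 2 or 3 of the 10 lay above both, beside 32% to 33.7% of genes. Under the 4 scalings TubA-10 held 7 or 8 genes between the controls, as did 61.7% to 65.3% of all genes, and TubA-20 held 5 or 6, as did 22.9% to 27.1%. *Ythdf3*, *Ythdc1* and *Ythdc2* in TubA-20 were between GV and MII under each scaling, while *Mettl3*, *Ythdf1* and *Alkbh5* changed place under some. *Wtap* and *Ythdf2* were above both controls in TubA-20 with the deposited values and under each scaling. *Mettl14* lay between GV and MII at both doses with the deposited values and under each scaling.

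**Figure D3:**
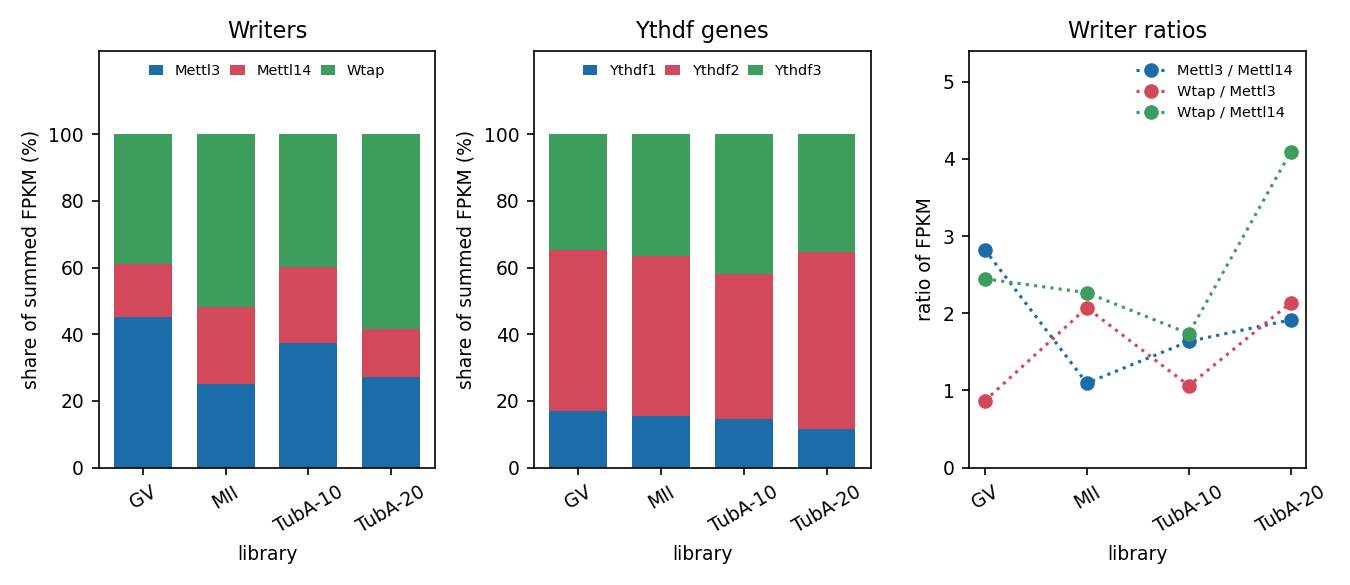
Shares of the summed FPKM (%) of the writers and of the cytoplasmic readers as stacked bars, and ratios of FPKM between writers as points joined by dotted lines, for the 4 libraries. *Wtap* holds 39.0% of the writer sum in GV against 58.4% in TubA-20, where its ratio to *Mettl14* is 4.09 against 1.74 to 2.45 in the other libraries.

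Likeness of pattern was measured as the Euclidean distance over the 3 log2 differences from GV, a description over 4 libraries in which all 3 differences share GV. *Ythdf3* and *Ythdc2* were the nearest pair of the 10, at 0.15. *Mettl14* was nearest to *Ythdf3* (0.30), *Ythdf2* to *Ythdc2* (0.33), *Wtap* to *Ythdf2* (0.53) and *Ythdc1* to *Mettl14* (0.59), while *Ythdf1* and *Alkbh5* (0.45) and *Mettl3* and *Fto* (0.47) were each other's nearest. In a search of 7896 genes that reached 5 FPKM in a library, the nearest to *Wtap* were *Fam220a* (0.05), *Ift57* (0.10) and the HSP90 co-chaperone gene *Ahsa1* (0.12). Those nearest to *Ythdc1* were *Zmym1* (0.03), the cyclin L gene *Ccnl2* (0.03) and the kinase gene *Nek1* (0.04).

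The wider m6A pathway was followed with 30 genes in 4 lists. The 5 other subunits of the writer complex were each higher in TubA-20 than in GV, with a median of 0.78, where 52.2% of all genes were higher, and 1 of 5, *Virma*, passed 2-fold, near the 15.5% of all genes. *Virma*, the scaffold of the complex, had 17.4 FPKM in GV, 30.1 in TubA-10, 32.5 in MII and 38.3 in TubA-20. *Zc3h13*, which keeps the complex in the nucleus, had 49.95, 73.9, 109 and 80.8 FPKM in that order of libraries, and it passed 2-fold in MII against GV (1.11). With the median change set to 0 both calls were lost, *Virma* being at 0.87 and *Zc3h13* at 0.97. The E3 ligase-like subunit gene *Cbll1* had 9.09, 11.0, 11.1 and 16.4 FPKM. The adaptor genes *Rbm15* and *Rbm15b*, whose proteins bring the complex to RNA, had 6.33, 8.37, 10.2 and 13.5 FPKM and 5.35, 5.33, 5.32 and 7.19 FPKM. *Virma*, *Cbll1*, *Rbm15* and *Rbm15b* had their highest level in TubA-20 and *Zc3h13* in MII. A level in TubA-20 above both GV and MII was common, at 40.7% of all genes. TubA-20 against MII gave a median of 0.36 for the 5 subunits, with *Zc3h13* at −0.42 and the others between 0.23 and 0.52.

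Over the 30 genes, 27 or 28 passed the minimum of 1 FPKM in a comparison. In MII against GV 2 of 27 were higher and 2 lower, beside 6.28% and 17.2% of all genes, with a median of 0.35. In TubA-10 against GV it was 0 and 2 of 27, beside 1.53% and 11.6%, with a median of 0.25. In TubA-20 against GV it was 4 and 3 of 28, beside 15.5% and 23.9%, with a median of 0.59. The shares that were higher are near those of all genes. In TubA-20 against GV the 4 higher were *Virma*, *Mettl16*, *Trmt112* and *Upf1*, and the 3 lower were *Mettl5*, *Rida* and *Nxf1*. *Mettl16*, from the list of other methyltransferases and partners, had 5.46 FPKM in GV, 11.3 in TubA-10, 11.5 in MII and 12.3 in TubA-20. Its difference of 1.04 between TubA-20 and GV was 0.83 with the median change set to 0. *Upf1*, a helicase of mRNA decay that YTHDF2 can recruit, had 24.8 FPKM in GV, 40.0 in TubA-10, 51.5 in MII and 72.1 in TubA-20, and its log2 difference from GV was 1.02 in MII and 1.501 in TubA-20, of which the first was 0.88 with the median change set to 0. *Mettl5*, a methyltransferase of ribosomal RNA, went the other way, with 14.5, 5.90, 5.88 and 4.42 FPKM in that order. *Nxf1*, the mRNA export receptor to which YTHDC1 hands marked mRNAs, had 162 FPKM in GV, 40.6 in TubA-10, 29.6 in MII and 11.1 in TubA-20. Its log2 difference from GV was −2.41 in MII and −3.75 in TubA-20, and at −1.34 it was the one gene of 28 past 2-fold in TubA-20 against MII, where 0.7% of all genes were higher and 5.21% lower. *Nxf1* and *Ythdc1* thus lay on opposite sides of GV in each cultured library. *Trmt112*, the partner of METTL5, stood at 181 FPKM in GV against 507 in TubA-20, opposite to *Mettl5*. In TubA-10 against MII 0 of 27 were past 2-fold in either direction, beside 1.1% of all genes higher and 0.271% lower. In TubA-20 against TubA-10 0 of 28 were higher and 2 lower, beside 1.4% and 11.7%, the 2 being *Nxf1* and *Rida*, which encodes the bridge between YTHDF2 and an endonuclease. These counts moved with the pseudocount and the scaling. With a pseudocount of 0.1 the genes higher than GV were 5 in MII and 7 in TubA-20, while the share of all genes also went up, to 9.93% and 20.4%. Under the 4 scalings the genes higher than GV ranged from 0 to 6 in MII, from 0 to 4 in TubA-10 and from 2 to 7 in TubA-20, and the shares of all genes went from 3.13% to 14.3%, from 0.611% to 7.03% and from 8.04% to 18.2%.

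**Figure D4:**
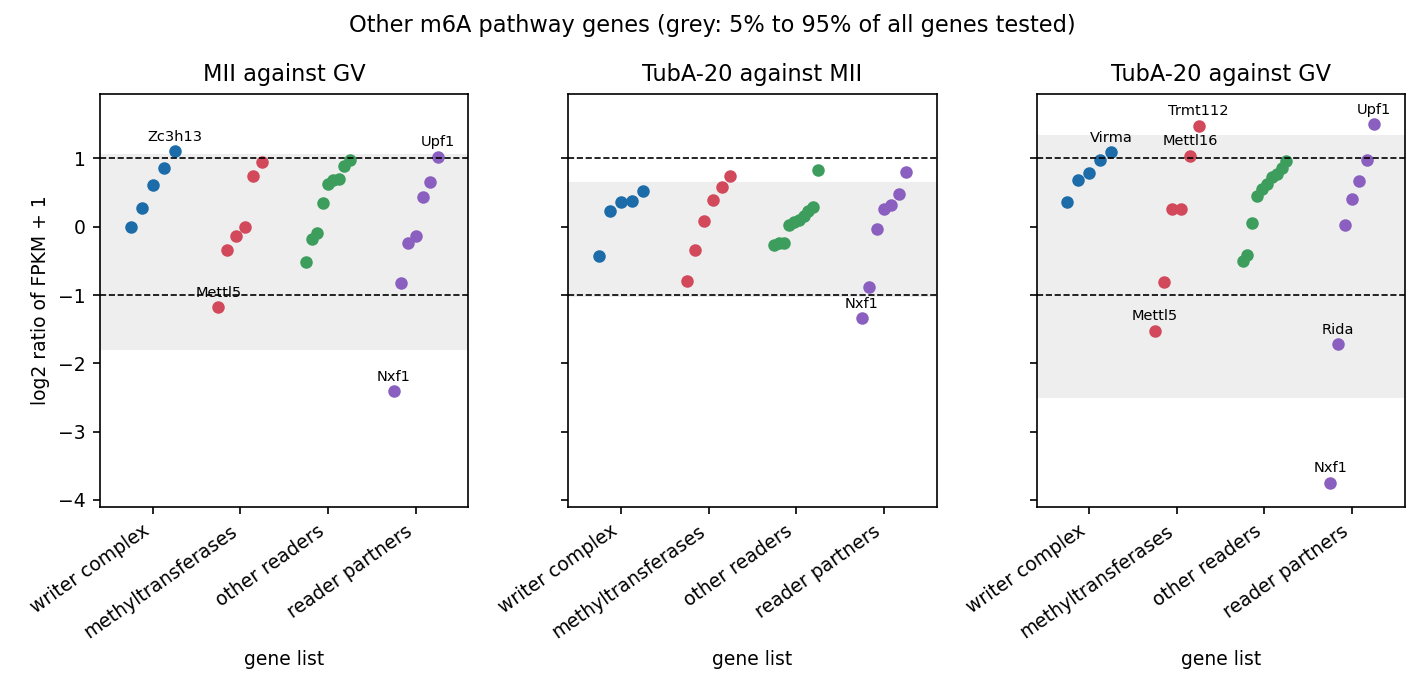
Log2 ratio of FPKM + 1 of the other m6A pathway genes that reached 1 FPKM in either library, by list, for MII against GV, TubA-20 against MII and TubA-20 against GV, with grey for the range from 5% to 95% of all genes tested and dashed lines at 2-fold. *Nxf1* lies lowest in each panel, at −2.41, −1.34 and −3.75, and *Upf1* lies highest in TubA-20 against GV at 1.501.

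Among other proteins that read m6A or prefer marked RNA, *Igf2bp2* had 135 FPKM in GV, 150 in TubA-10, 172 in MII and 185 in TubA-20, above each of the 10 core genes in each library, and *Igf2bp1* was listed at no more than 0.0801 FPKM. *Igf2bp3* had 32.8, 40.9, 53.4 and 65.1 FPKM in that order, with the same order of libraries as *Ythdf2* and *Wtap*. *Hnrnpa2b1*, a nuclear binding protein of marked RNA, had 102 FPKM in GV and between 169 and 201 in the cultured libraries. Of the 11 genes of this list, 9 or 10 reached the minimum in a comparison. With the deposited values and the pseudocount of 1 it was 0 past 2-fold in each of the 6. *Hnrnpa2b1* lay just inside 2-fold in MII against GV, at 0.97. Scaling to equal FPKM sums, equal upper quartiles or equal *Gapdh* moved it past 2-fold, so the 0 holds only without these scalings. Of all genes tested, 15.5% were higher and 23.9% lower in TubA-20 against GV and 6.28% and 17.2% in MII against GV, but only 0.271% to 5.21% in the comparisons with MII as the base. That pseudocount holds back low genes: *Rbmx*, at 1.15 FPKM in TubA-20 and 0.206 in MII, had a ratio of 5.57, and *Fmr1* had a ratio of 2.04 of MII (9.77 FPKM) to GV (4.797 FPKM).

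Some of these values may hold reads of other genes. *Wtap* has 4 processed pseudogene copies with an identity of 94.7% to 99.3% over 296 to 674 bases, and *Ythdf2* has 2 with 95.2% and 96.3% over 1840 and 1740 bases. *Ythdc1* shares 635 bases with the long non-coding gene *Gm43055* on its own strand. The methods state default options for cufflinks beside the library type, but how the alignments treated reads that fit several places is not given in the sources used here, so the levels of these 3 genes, and with them the 2-fold differences above, are uncertain to that extent. *Mettl3* overlaps *Tox4* on the opposite strand by 1561 bases. *Tox4* was at no more than 2.66 FPKM, and the methods state a strand-specific library option. The part of *Tox4* reads in the values of *Mettl3* was not tested.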

How the data were processed

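RNA-seq libraries were made from oligo(dT)-selected RNA with a stranded kit and sequenced from both ends. The authors deposited 1 table of FPKM values made with cufflinks for a first-strand library against mm10. Entries have Ensembl identifiers, although the methods name UCSC annotation. The submitters' processing notes also name STAR 2.5.0 and Cuffdiff 2.2.1. FPKM are already divided by transcript length and mapped fragments, and the read totals of the paper entered no value here, so depth is a rough estimate relative to GV. Each column was matched to a sample by its label, and 0 columns of other samples were found. Identifiers were joined to symbols without their version: 21794 of 21959 entries matched, and entries of 1 symbol were summed.

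Log2 ratios used FPKM + 1, a minimum of 1 FPKM in either library and a 2-fold threshold. With 1 library per group no test was run. The 10 members and all gene lists were chosen with earlier results of these data known. All 10 members and the 5 other writer subunits are named. Of the other pathway genes, those past 2-fold in MII against GV or TubA-20 against MII with at least 5 FPKM are named, and the rest (*Mettl16*, *Trmt112*, *Rida*, *Meioc*, *Igf2bp1*, *Igf2bp2*, *Igf2bp3*, *Hnrnpa2b1*, *Rbmx*, *Fmr1*) were picked after their values were seen. Positions between GV and MII, and ranges and counts above 0 per scaling, were added after seeing the data. Sequences and coordinates are from GENCODE M21 (GRCm38), and copies were found by aligning transcripts. Alternatives were pseudocounts of 0.1 and 0.01, no minimum or 5 FPKM, 4 scalings, 1.5-fold and 3-fold thresholds, and the highest entry of each symbol. The scripts were tested on simulated data. Python 3.11.15, numpy 2.4.6, pandas 2.3.3 and matplotlib 3.10.9 were used.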

Additional observations from a re-analysis of the deposited data

How the results depend on the processing

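Pseudocounts of 0.1 and 0.01, no minimum and a minimum of 5 FPKM changed no count of the 10 genes past 2-fold. The scalings did. With the median change set to 0, 0 genes were higher in MII than in GV (*Ythdc1* at 0.94) and 1 in TubA-20 than in GV (*Ythdc1* at 0.91), beside 3.13% and 8.04% of all genes, and the median of TubA-20 against MII was −0.040. With equal FPKM sums 2 were higher in MII than in GV, *Mettl14* being added at 1.02, beside 10.5%, and that median was −0.10. With equal upper quartiles the median was −0.074. With equal *Gapdh* 3 genes were higher in MII than in GV, beside 14.3%: *Ythdc1* at 1.31, *Mettl14* at 1.12 and *Wtap* at 1.04. Under that scaling 1 was higher in TubA-10 than in GV (*Ythdc1* at 1.02), beside 7.03%, and 0 in TubA-20 than in TubA-10 (*Wtap* at 0.94), beside 0.598%. The medians of TubA-20 against MII and against TubA-10 were then −0.11 and −0.0041. At 1.5-fold 6 genes were higher in MII than in GV, with 2 for TubA-10 and 5 for TubA-20, beside 24.5%, 15.8% and 32.7%. At that threshold 2 were higher in TubA-20 than in TubA-10 and 1 was lower in TubA-10 than in MII, beside 12.8% and 2.1%. At 3-fold 0 were higher in MII than in GV, 0 in TubA-20 than in GV and 0 in TubA-20 than in TubA-10, beside 0.31%, 1.07% and 0.145%. Of 360 recomputed differences of the 10 genes, 326 kept their direction and their side of 2-fold, 27 turned direction with none past 2-fold, 4 moved past 2-fold and 3 moved inside it. Those that turned were at most 0.15 in size with the deposited values. Differences between TubA-20 and MII of *Ythdf3*, *Ythdc1* and *Ythdc2*, and between TubA-20 and TubA-10 of *Ythdf1*, turned under all 4 scalings. The counts of other pathway genes past 2-fold moved as well.

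Each condition had 1 library, so none was left out and no value has a replicate error. No paired analysis was possible because each group holds a single library. FPKM near 1, as for *Fto*, rest on few fragments, and by the estimate from low values GV and TubA-20 were shallower than MII and TubA-10. The step behind that estimate was sharper for TubA-20, with 75.8% of nearby genes no more than 0.03 log2 from the step, than for MII and TubA-10 (22.2% and 29.0%). Poly(A) tail length, RNA amount and loss relative to other mRNAs cannot be told apart in these values. Nor, in a pool of 100 oocytes, can the share of oocytes at each stage.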
